A study of Mus musculus with 3 samples.

Results

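Elastin (Eln), the fibulins Fbln1, Fbln2, Fbln5, Efemp1 and Efemp2, and the lysyl oxidases Lox, Loxl1, Loxl2 and Loxl3 were followed in the ascending aorta of Marfan mice. They were found by gene symbol, and all 10 were present once among the 32285 genes counted in each of 3 droplet single-cell libraries. The libraries came from male mice on the C57BL/6J strain at postnatal day 45. The WT library pooled 3 wild-type mice. The mgR library pooled 3 mice homozygous for Fbn1mgR, a hypomorphic allele of fibrillin-1 that lowers its transcript, and the mgR-LOS library pooled 4 Fbn1mgR/mgR mice that had losartan, an angiotensin II type 1 receptor blocker, at 0.6 g/L in drinking water from postnatal day 16. Whether untreated mutants were given vehicle is not stated in the labels. The study asked how aortic cells change in this model and under losartan, and the 2 comparisons here, mgR against WT and mgR-LOS against mgR, share the mgR library. The tissue was released with elastase and collagenase, and transcripts were counted near their 3' ends as unique molecular identifiers (UMIs).

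An elastic fiber is a core of cross-linked elastin on a scaffold of fibrillin microfibrils. Fibulin-5 (Fbln5) and fibulin-4 (Efemp2) bring tropoelastin, microfibrils and lysyl oxidases together, and lysyl oxidases oxidize lysine side chains so that elastin and collagen chains join. In the aortic media, smooth muscle cells (SMCs) lay down most elastin around birth, and mice that lack Eln, Fbln5, Efemp2, Lox or Loxl1 have defective elastic fibers.

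Each group was 1 library, so no test between groups was possible, and genotype, treatment and library cannot be told apart. Intervals in parentheses are exact 95% intervals that cover counting error only. The libraries held 7858 to 14663 barcodes, of which 5361 WT, 8076 mgR and 12721 mgR-LOS barcodes passed the filters. Median depth of these barcodes was 13636, 12411 and 8334 UMIs, and 11 to 34 barcodes were shared between any pair of libraries. The file headers name CellRanger 5.0.1 for WT and mgR and 6.0.1 for mgR-LOS. In a graph clustering without integration the libraries stood apart in the largest clusters of SMC-like barcodes. The largest WT cluster of these held 3105 WT, 51 mgR and 62 mgR-LOS barcodes. Fibroblast-like and EC-like barcodes were more mixed. The largest fibroblast-like cluster held 516 WT, 1249 mgR and 1095 mgR-LOS barcodes, and the EC-like cluster 115, 233 and 198. Fbn1 itself had 250.4 counts per 1000000 UMIs (CPM) in WT SMC-like barcodes against 78.6 (mgR) and 68.1 (mgR-LOS), and fibroblast-like and EC-like barcodes ordered the libraries alike.

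Barcodes were put in classes by the share of their UMIs in a panel of marker genes, and a barcode over the minimum of several panels was left out. The SMC-like class, with contractile genes such as Acta2 and Myh11, held 3668 WT, 3160 mgR and 7976 mgR-LOS barcodes. The fibroblast-like class, with Pdgfra, Dcn and Col1a1, held 1276, 2260 and 2985, and the endothelial (EC)-like class, with Pecam1 and Cdh5, held 105, 222 and 178. The mgR library had the most barcodes near the limits. Within 1.5-fold of the fibroblast minimum lay 242, 954 and 664 kept barcodes, and of the SMC minimum 61, 538 and 412. The summed fibroblast panel in its own class differed between libraries, at 42640, 36382 and 47541 CPM. Whether the mix of cells in the class or the levels of the panel genes differed was not tested. In every library each panel gene was highest in its own class, which is close to given because the same genes formed the classes. None of the members was used to form a class. A level is the class sum of a gene's UMIs over all UMIs of that class, in CPM. Since a transcript molecule yields 1 UMI whatever its length, levels were not divided by length. Immune-like barcodes (130, 1690 and 763), which should lack these transcripts, were used as a guide to the level that free RNA brings. Their median depth was 8375.5, 7675.5 and 6288 UMIs, against 14354, 15056.5 and 8526 in SMC-like barcodes. Whether free RNA takes the same share of UMIs at other depths was not tested. For Eln the immune-like level was 178 CPM in WT, 384 CPM in mgR and 215 CPM in mgR-LOS. It was at most 54.6 CPM for Fbln5, 24.6 CPM for Lox, 20.4 CPM for Loxl1 and 13.6 CPM for each other member.

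Positions are those of GENCODE gene models on GRCm38. Eln spans chr5:134702593-134747323 on the minus strand. Fbln1 spans chr15:85205949-85286535, Fbln2 chr6:91212455-91272540, Efemp1 chr11:28853204-28926743 and Efemp2 chr19:5473954-5482517, all on the plus strand, and Fbln5 chr12:101746565-101819055 on the minus strand. Loxl1 spans chr9:58287738-58313186 on the minus strand, and Loxl2 chr14:69609068-69695834 and Loxl3 chr6:83034173-83052562 on the plus strand. Efemp2 overlaps Mus81 and Loxl3 overlaps Htra2 on the opposite strand.

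RefSeq promoters (250 bases before to 50 after a transcript start, GRCm38.p6) were at hand for 5 of the 10 members: Fbln1, Fbln2, Fbln5, Efemp1 and Efemp2. Those of Fbln1, Fbln2 and Efemp1 are shown as examples. In fibroblast-like barcodes Fbln2 and Efemp1 were above WT in both mutant libraries while Fbln1 was below. Efemp2 was likewise above WT in both and Fbln5 below in both, and their windows are given only as motif counts. Capitals mark matches, on either strand, to the GC box GGGCGG, to the letters TATAAA found upstream of many start sites, or to TGANTCA, the site of AP-1 factors, and all 3 promoters are on the plus strand.
Fbln1, chr15:85205699-85205998: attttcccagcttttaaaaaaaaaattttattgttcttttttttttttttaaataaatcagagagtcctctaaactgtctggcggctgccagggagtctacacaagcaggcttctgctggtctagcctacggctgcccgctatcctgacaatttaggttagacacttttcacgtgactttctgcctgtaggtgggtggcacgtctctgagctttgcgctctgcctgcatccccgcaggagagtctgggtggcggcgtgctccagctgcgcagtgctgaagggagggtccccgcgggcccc
Fbln2, chr6:91212514-91212813: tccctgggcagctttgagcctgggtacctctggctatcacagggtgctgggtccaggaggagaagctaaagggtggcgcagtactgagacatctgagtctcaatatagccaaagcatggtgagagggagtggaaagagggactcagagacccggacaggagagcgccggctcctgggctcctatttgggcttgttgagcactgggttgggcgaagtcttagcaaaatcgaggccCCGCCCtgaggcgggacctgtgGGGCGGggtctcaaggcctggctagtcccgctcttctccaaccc
Efemp1, chr11:28852955-28853254: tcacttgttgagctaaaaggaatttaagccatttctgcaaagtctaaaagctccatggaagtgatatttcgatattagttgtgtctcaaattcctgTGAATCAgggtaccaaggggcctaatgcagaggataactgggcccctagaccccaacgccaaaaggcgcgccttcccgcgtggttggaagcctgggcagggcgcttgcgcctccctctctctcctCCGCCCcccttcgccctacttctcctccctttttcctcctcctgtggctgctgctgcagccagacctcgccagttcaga
The Fbln2 window held 2 GC boxes, the Efemp1 window 1 GC box and 1 AP-1 site, and the Fbln1 window none of these 3 motifs. Of 3 motifs left in lower case, the Smad element CAGAC matched 2 times in Fbln1, 0 times in Fbln2 and 1 time in Efemp1, the E-box CANNTG 2, 1 and 1 times, and the CArG box in none. Of 32851 RefSeq promoters of the same length, 35.7% held a GC box, 7.81% an AP-1 site and 13.6% the letters TATAAA, with 49.6% for the Smad element, 72.3% for the E-box and 1.63% for the CArG box. G and C made up 51.7% of the Fbln1, 60.3% of the Fbln2 and 54.3% of the Efemp1 window, against a median of 52.7% over all promoters. The start used for Fbln2 lies 309 bases from the GENCODE gene start. The Fbln5 window, not shown, held 2 GC boxes, 1 Smad element and 2 E-boxes. The Efemp2 window, not shown, held 2 GC boxes, 2 Smad elements and no E-box. Neither held TATAAA, an AP-1 site or a CArG box. GC boxes were thus found in windows of genes above WT and of a gene below it. A match is a description of the letters and not a binding site.

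Elastin was the most abundant of the members in SMC-like, fibroblast-like, EC-like and immune-like barcodes of each library, and SMC-like barcodes held most of it. In SMC-like barcodes Eln stood at 6048 CPM in WT (6027 to 6069), 7427 in mgR (7403 to 7451) and 4110 in mgR-LOS (4095 to 4125). The mgR library was thus highest and the losartan library lowest, below WT. The mgR level was 1.23 times WT (1.22 to 1.23), and the mgR-LOS level was 0.553 times mgR (0.551 to 0.556). SMC-like barcodes carried 86.9% of all Eln UMIs in WT, 71.8% in mgR and 84.0% in mgR-LOS, and fibroblast-like barcodes carried 11.3%, 18.4% and 10.0%. These shares also depend on class size. SMC-like barcodes were 68.4%, 39.1% and 62.7% of kept barcodes, and fibroblast-like barcodes 23.8%, 28.0% and 23.5%.

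**Figure D1:**
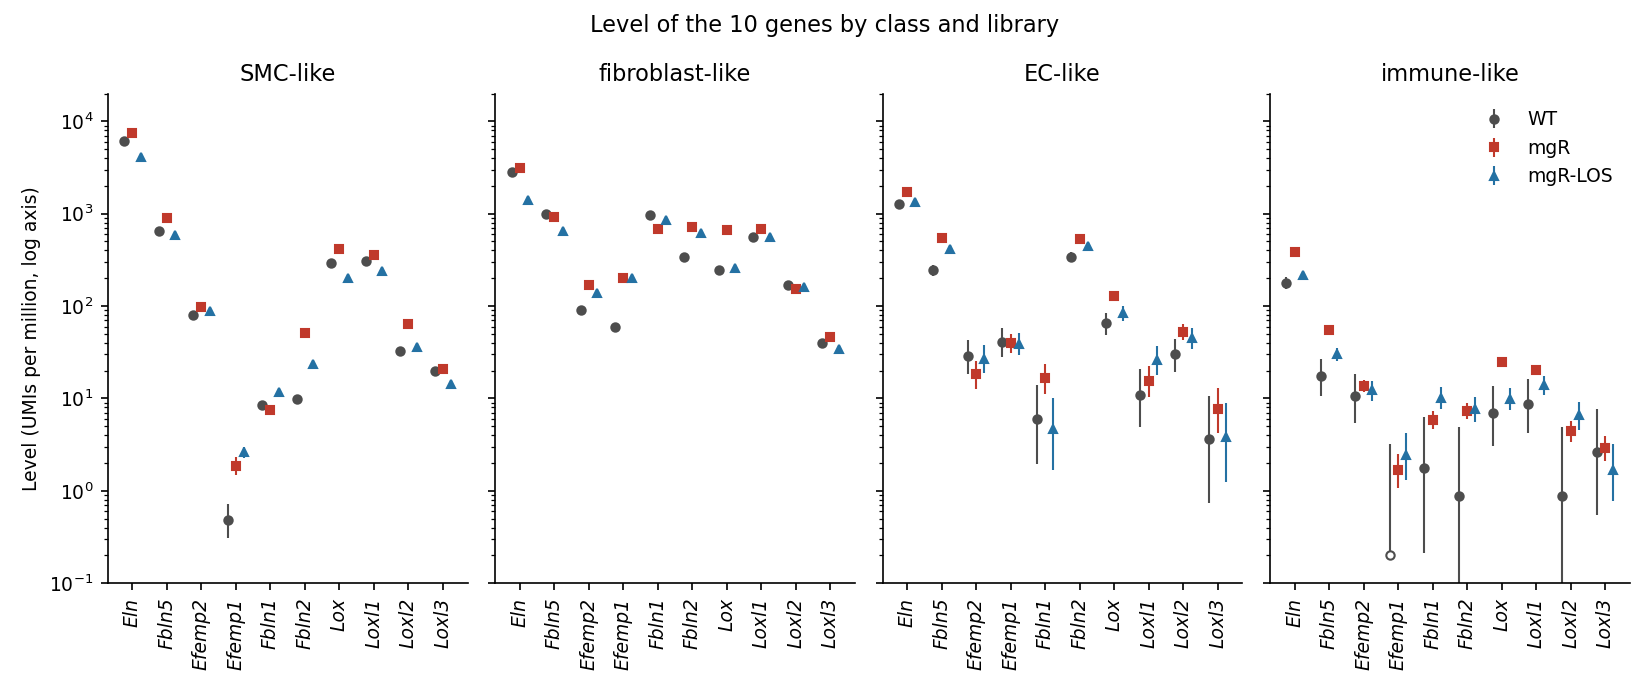
Level of each gene (CPM, log axis) in SMC-like, fibroblast-like, EC-like and immune-like barcodes, with WT as circles, mgR as squares, mgR-LOS as triangles and bars for exact 95% Poisson intervals; the open circle is a count of 0 drawn at 0.2. Eln is the highest gene in each panel, Fbln1 and Efemp1 sit in fibroblast-like barcodes far above SMC-like barcodes, and Loxl1 is near the immune-like level in EC-like barcodes.

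In fibroblast-like barcodes Eln was at 2845 CPM in WT, 3159 CPM in mgR and 1409 CPM in mgR-LOS. The losartan library was again lowest, at 0.446 times mgR (0.441 to 0.452) and 0.495 times WT (0.488 to 0.502). SMC-like barcodes exceeded fibroblast-like barcodes 2.13-fold in WT (2.10 to 2.15), 2.35-fold in mgR and 2.92-fold in mgR-LOS. EC-like barcodes had 1273, 1732 and 1332 CPM, which was 7.13 times the immune-like level in WT, 4.51 times in mgR and 6.19 times in mgR-LOS. The summed SMC panel in these EC-like barcodes was 1204, 1587 and 1895 CPM, close to the 1007, 1551 and 1520 CPM of immune-like barcodes. The summed fibroblast panel in EC-like barcodes, 2134, 1418 and 2649 CPM, was above the 302, 592 and 720.4 CPM of immune-like barcodes, and its part in the EC-like levels was not tested.

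The sum hid a wider spread in mgR. The median SMC-like barcode had 5242 CPM of Eln in WT, 5112 CPM in mgR and 3276 CPM in mgR-LOS, so that by the median mgR did not exceed WT. The 90th percentile was 10801 CPM in WT, 14650.4 CPM in mgR and 8096 CPM in mgR-LOS, and the 10th percentile was 1711, 1252 and 828 CPM. The mgR barcodes therefore reached both higher and lower than WT barcodes, at a like median depth of 14354 and 15057 UMIs (8526 in mgR-LOS). In fibroblast-like barcodes the median was far under the sum in each library, at 726, 590.2 and 460.5 CPM, since a minority of barcodes carried most Eln. After thinning each barcode to 1000 UMIs, Eln was seen in 94.0% of WT, 92.3% of mgR and 87.4% of mgR-LOS SMC-like barcodes, and in 55.1%, 51.3% and 45.5% of fibroblast-like barcodes. In immune-like barcodes the same shares were 16.2%, 24.2% and 16.8%. Without thinning, 99.9%, 99.7% and 99.1% of SMC-like and 91.1%, 92.3% and 85.3% of fibroblast-like barcodes had an Eln UMI. Thinning left out at most 6 SMC-like, 1 fibroblast-like and 2 immune-like barcodes of a library.

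**Figure D2:**
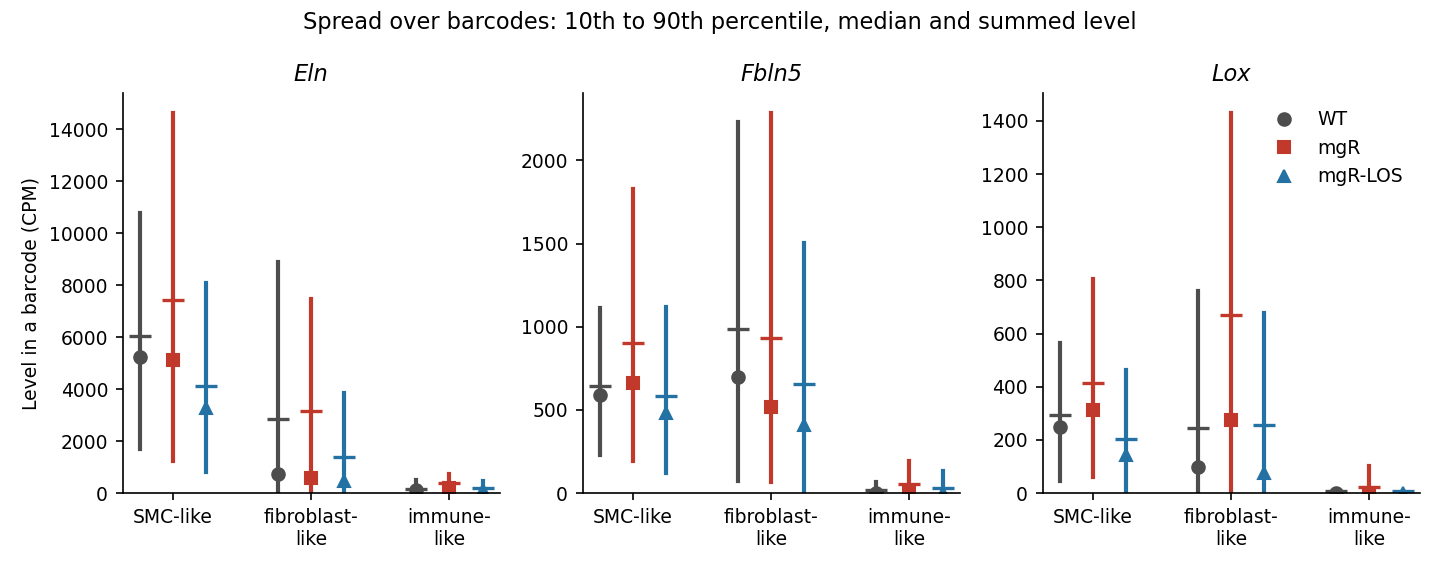
Spread of Eln, Fbln5 and Lox over single barcodes (CPM): vertical lines run from the 10th to the 90th percentile, symbols are medians and short horizontal bars are the levels of the class sums. For Eln in SMC-like barcodes the mgR line is the longest while its median, 5112 CPM, lies next to the WT median of 5242 CPM.

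The fibulins that serve elastic fiber assembly followed Eln in part. Fbln5, which binds tropoelastin and Loxl1, had 644 CPM in WT, 901 CPM in mgR and 582 CPM in mgR-LOS in SMC-like barcodes. This was the same order as for Eln, with ratios of 1.40 (1.38 to 1.42) for mgR over WT and 0.646 (0.638 to 0.655) for mgR-LOS over mgR. In fibroblast-like barcodes Fbln5 stood at 986, 931 and 654 CPM, so that mgR lay under WT there, at 0.944 times (0.925 to 0.964). Losartan-treated fibroblast-like barcodes were lowest, at 0.702 times mgR. Fbln5 also differed in EC-like barcodes, where 245 CPM in WT faced 539 CPM in mgR and 418 CPM in mgR-LOS, a ratio of mgR over WT of 2.20 (1.89 to 2.57).

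Efemp2 encodes fibulin-4, which is needed for Lox to act on elastin. Its level in SMC-like barcodes was 80.7 CPM in WT, 97.6 CPM in mgR and 88.5 CPM in mgR-LOS, a narrow range. In fibroblast-like barcodes it was 90.8 CPM in WT, 171 CPM in mgR and 138 CPM in mgR-LOS. Both mutant libraries were thus above WT in fibroblast-like barcodes, by 1.88-fold (1.77 to 1.998) and 1.52-fold (1.42 to 1.62). EC-like barcodes had 18.3 to 29.0 CPM, and in mgR this was 1.35 times the immune-like level (lower bound 0.900), which counts as background.

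Fibroblast-like barcodes carried most UMIs of Fbln1, Fbln2 and Efemp1, and the 3 differed in their course. Fbln1, a fibulin of basement membranes and elastic fibers, had 972 CPM in WT, 675 CPM in mgR and 860 CPM in mgR-LOS fibroblast-like barcodes. It was the only member with its lowest fibroblast-like level in mgR other than Loxl2, at 0.695 times WT (0.680 to 0.710), just short of the 1.5-fold difference counted later. Its SMC-like levels, 8.53, 7.46 and 11.7 CPM, were 1.28 times the immune-like level in mgR and 1.16 times in mgR-LOS. They were not set apart from background in these 2 libraries, whose SMC-like barcodes were deeper than their immune-like ones. Fibroblast-like barcodes carried 92.9%, 91.4% and 86.0% of its UMIs.

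Fbln2, which binds elastin, fibrillin-1 and fibronectin, had 341 CPM in WT, 717 CPM in mgR and 618 CPM in mgR-LOS fibroblast-like barcodes. The mgR level was 2.10 times WT (2.04 to 2.17), and with losartan it remained 1.81 times WT (1.76 to 1.87). In SMC-like barcodes it was low in every library, at 9.77 CPM in WT, 51.4 CPM in mgR and 23.6 CPM in mgR-LOS, but the ratio of mgR over WT was the largest of any member that passed the filter, 5.26 (4.78 to 5.801). It was seen in 0.710% of WT, 4.43% of mgR and 2.01% of mgR-LOS SMC-like barcodes thinned to 1000 UMIs, against 0.769%, 0.948% and 0.786% of immune-like barcodes. Unthinned, the SMC-like shares were 7.63%, 28.4% and 12.6% and the immune-like shares 0.769%, 4.32% and 4.33%, at the immune-like median depths of 8375.5, 7675.5 and 6288 UMIs. The SMC-like level was 11.2 times the immune-like level in WT (1.996 to 442, from 1 immune-like UMI), 6.997 times in mgR (lower bound 5.73) and 3.07 times in mgR-LOS (lower bound 2.25). EC-like barcodes, at 340.2 CPM in WT, carried as much Fbln2 as fibroblast-like barcodes, a ratio of 1.00 (0.888 to 1.13).

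Efemp1, or fibulin-3, had the largest ratio among fibroblast-like barcodes. Its level was 59.6 CPM in WT, 201 CPM in mgR and 200.5 CPM in mgR-LOS. Both mutant libraries stood well above WT, by 3.37-fold (3.13 to 3.62) and 3.36-fold (3.13 to 3.62), and they differed from each other by a ratio of 0.998 (0.961 to 1.04). After thinning, 3.61% of WT, 14.03% of mgR and 12.2% of mgR-LOS fibroblast-like barcodes showed it, and 16.8%, 43.1% and 33.8% without thinning. In SMC-like barcodes it reached at most 2.60 CPM, level with immune-like barcodes. EC-like barcodes had 41.0, 39.4 and 39.3 CPM of Efemp1, from 34, 71 and 51 UMIs. The fibroblast-like over EC-like ratio was 1.45 in WT (1.03 to 2.11), 5.10 in mgR and 5.11 in mgR-LOS.

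Among the lysyl oxidases, Lox had the ratios furthest from 1 in fibroblast-like barcodes for both comparisons, and in SMC-like barcodes for mgR-LOS over mgR. Its gene spans chr18:52516067-52529867 on the minus strand. SMC-like barcodes had 293 CPM of Lox in WT, 415 in mgR and 204 in mgR-LOS. Fibroblast-like barcodes had 246 CPM in WT, 672 in mgR and 258 in mgR-LOS. Fibroblast-like barcodes were below SMC-like barcodes in WT and above them in both mutant libraries, with SMC-like over fibroblast-like ratios of 1.19 (1.15 to 1.24), 0.617 (0.605 to 0.630) and 0.790 (0.767 to 0.813). The mgR level was 1.42 times WT (1.39 to 1.45) in SMC-like and 2.73 times (2.63 to 2.83) in fibroblast-like barcodes. With losartan the levels were 0.491 (0.481 to 0.502) and 0.384 (0.373 to 0.395) times those of mgR. Against WT, losartan-treated fibroblast-like barcodes were at 1.05 times (1.01 to 1.09) and SMC-like barcodes at 0.695 times (0.680 to 0.711). By the median barcode, fibroblast-like Lox was 97.6 CPM in WT, 276 in mgR and 74.5 in mgR-LOS, and 40.9%, 26.2% and 49.0% of these barcodes had no Lox UMI at their own depth. EC-like barcodes had 65.1, 128 and 83.9 CPM, again highest in mgR.

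Loxl1, which cross-links elastin with Fbln5 as its partner, varied less. It had 306, 356 and 240 CPM in SMC-like barcodes of WT, mgR and mgR-LOS, and 566, 675 and 562 CPM in fibroblast-like barcodes. Fibroblast-like barcodes were higher in each library, and the ratio of mgR-LOS over mgR in SMC-like barcodes, 0.672 (0.658 to 0.687), was just short of a 1.5-fold difference. In EC-like barcodes its 10.9, 15.5 and 26.2 CPM were 1.24, 0.760 and 1.88 times the immune-like level.

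Loxl2 acts mainly on collagens, and it differed between SMC-like and fibroblast-like barcodes. It had 32.9 CPM in WT, 63.4 CPM in mgR and 36.4 CPM in mgR-LOS in SMC-like barcodes. In fibroblast-like barcodes the levels were 170, 152 and 160 CPM. By the class sums mgR was thus highest in SMC-like and lowest in fibroblast-like barcodes. The ratios of mgR over WT were 1.93 (1.82 to 2.05) and 0.895 (0.852 to 0.941). The median fibroblast-like barcode gave another order, at 0 CPM in WT, 71.3 CPM in mgR and 0 CPM in mgR-LOS. Of these barcodes 50.2%, 41.7% and 51.0% had no Loxl2 UMI at their own depth. The summed ratio also differed between fibroblast-like subsets, as given below. Loxl3, a little-studied relative, stayed between 14.4 and 20.6 CPM in SMC-like and between 34.2 and 46.4 CPM in fibroblast-like barcodes, and in EC-like barcodes it had 3 to 14 UMIs in all.

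Counted at 1.5-fold among genes with a mean of at least 10 CPM, the members fell into 2 patterns. In SMC-like barcodes 2 of the 8 members that passed the filter were higher in mgR than in WT, Fbln2 and Loxl2, and none was lower. Of all 7401 genes tested in that class, 4.55% were higher and 3.36% lower. Under losartan 5 of the 8 were lower than in mgR, namely Eln, Fbln2, Fbln5, Lox and Loxl2, and none was higher, against 3.09% and 3.53% of all genes. The losartan call of Fbln2 was lost in 1 of 12 alternatives, at up to 0.675, and that of Fbln5 in 2 of 12, at up to 0.683. Where at most 5% mitochondrial UMIs were allowed, which kept 597 of 3668 WT SMC-like barcodes, Fbln5 at 1.54 and Lox at 1.52 also passed for mgR over WT, and Fbln1 passed at 0.574 in the other direction. Fbln1 and Efemp1 did not pass the filter of the main analysis in SMC-like barcodes.

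In fibroblast-like barcodes all 10 passed the filter, and 4 were higher in mgR, Fbln2, Efemp1, Efemp2 and Lox, with none lower, against 6.19% higher and 3.72% lower of 8147 genes. Under losartan 2 of 10 were lower than in mgR, Eln and Lox, and none was higher, against 3.07% and 2.96%. Fbln1 was past the threshold as a lower gene in mgR with the looser gate (0.658) and with graph clusters (0.662). Of the 4 genes higher in mgR, Lox was back near the WT level with losartan, while Fbln2, Efemp1 and Efemp2 stayed at least 1.52 times WT. The median log2 ratio of mgR-LOS over mgR across the members was -0.72 in SMC-like and -0.29 in fibroblast-like barcodes, and across all genes tested it was 0.03 and -0.00020.

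In EC-like barcodes 8 members passed, and Fbln2, Fbln5, Lox and Loxl2 were higher and Efemp2 lower in mgR, against 12.6% higher and 7.62% lower of 8470 genes. Under losartan Loxl1 was higher and Lox lower than in mgR, against 8.21% and 9.21%. The class is small, with 828880 UMIs in WT, and the intervals of Efemp2 (0.362 to 1.12) and of Loxl1 (0.992 to 2.89) include 1. Efemp2 in mgR and Loxl1 in mgR are at the immune-like level, and their calls were lost in 6 of 12 and 3 of 11 alternatives. Of the other calls in this class, Fbln5 and Lox of mgR over WT held in all 12 alternatives, Fbln2 was lost in 4 and Loxl2 in 1, and Lox under losartan was lost in 7.

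**Figure D3:**
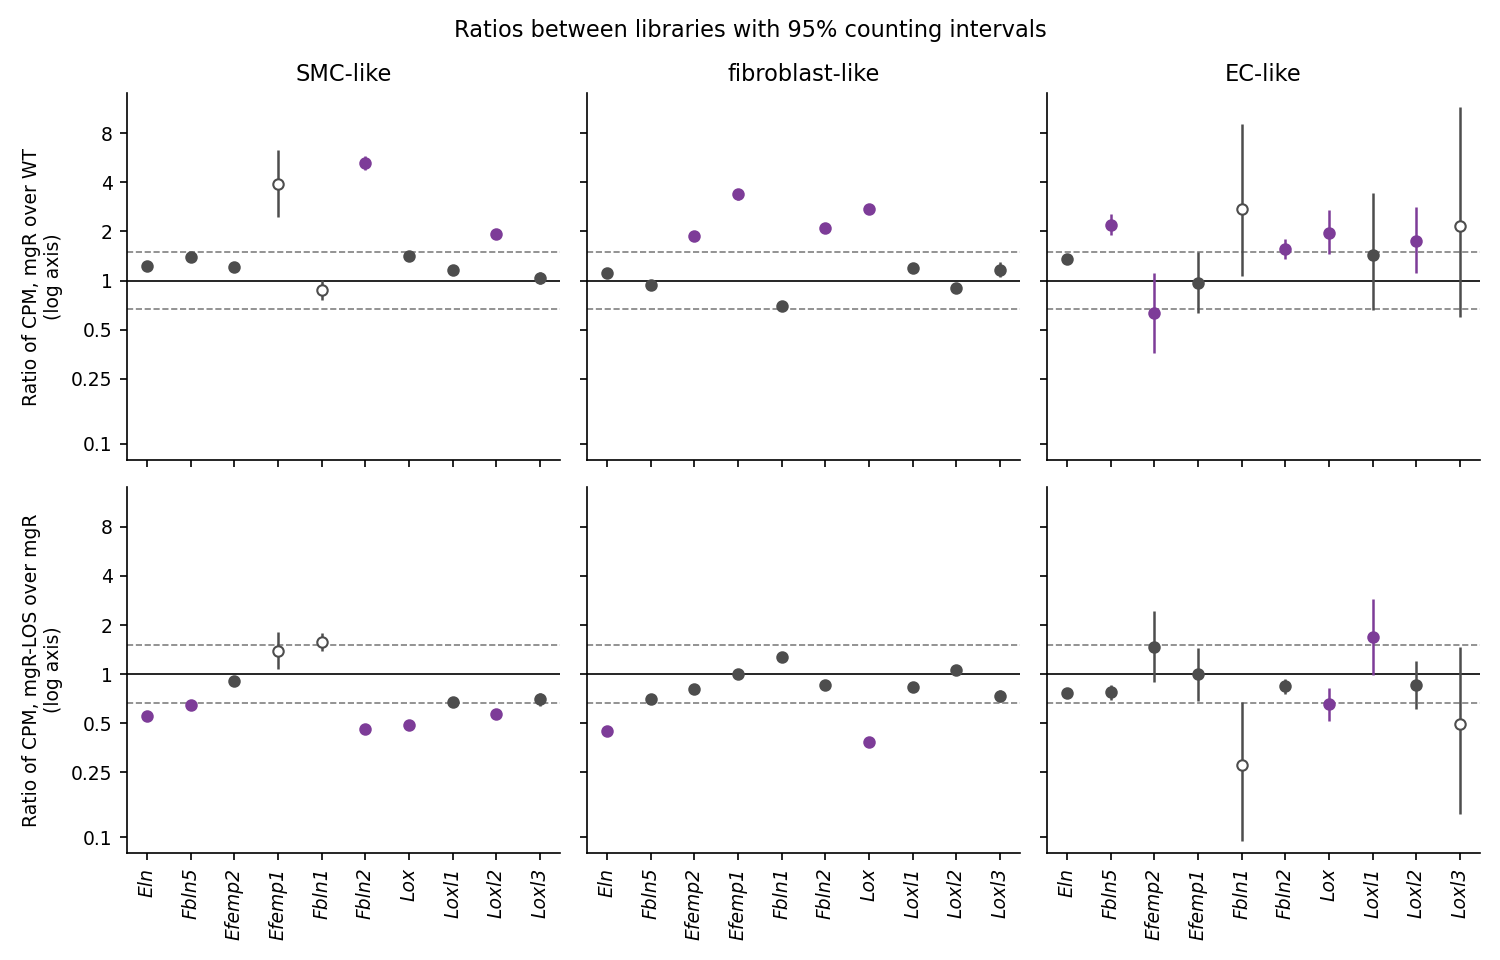
Ratio of CPM (log axis) of mgR over WT in the upper row and mgR-LOS over mgR in the lower row, by class, with exact 95% counting intervals. Dashed lines mark 1.5-fold, purple points lie past it, and open points failed the filter of 10 CPM; the lower SMC-like panel has 5 purple points under the lower line and the upper fibroblast-like panel has 4 above it.

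Within fibroblast-like barcodes the members split by subset. Barcodes with Pi16, Dpp4, Ly6c1 and Sema3c at 0.1% or more of their UMIs numbered 504, 728 and 862, and those with Comp, Chad and Fmod, genes of cartilage and tendon matrix, numbered 280, 344 and 426. Some barcodes were in several subsets (79, 198 and 179). Fbln2 in the Pi16 subset was at 687 CPM in WT, 1716 CPM in mgR and 1574 CPM in mgR-LOS, and Efemp1 at 138, 505 and 491 CPM. In each library these were 4.29 to 8.19 times (Fbln2) and 6.91 to 8.69 times (Efemp1) the level in the other fibroblast-like barcodes. With the limit of 0.1%, the higher level of both genes in the mutant libraries was thus seen within the subset where they were most abundant. It was not seen only there. For Fbln2, mgR over WT was 2.50 in the Pi16 and 2.47 in the Comp subset. It was 1.01 (0.873 to 1.17) in the subset with Gdf10 and Hsd11b1. For Efemp1 the same ratios were 3.67, 23.0 (from 2.75 CPM in WT) and 2.75. Loxl2 was instead high in the Comp subset, at 348, 242 and 283 CPM. Fbln5 was high there too, at 1326, 1491 and 1175 CPM. In the Gdf10 subset Fbln5 was at 1125, 1409 and 930 CPM, and in the Pi16 subset at 950, 651 and 592 CPM. The share of UMIs in the subset markers differed between libraries. Of the Pi16 subset, 131 of 504 WT and 368 of 728 mgR barcodes had the markers at 0.4% or more. Of the Comp subset, 144 of 280 WT and 63 of 344 mgR barcodes did. Genes other than Eln were not followed at higher limits, and the part of this difference in their ratios was not tested.

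The summed Eln level differed between these subsets. In the Pi16 subset it was at 4227 CPM in WT, 1843 CPM in mgR and 1225 CPM in mgR-LOS, a ratio of mgR over WT of 0.436 (0.427 to 0.445). In the Comp subset it was at 1279 CPM in WT, 3031 CPM in mgR and 1801 CPM in mgR-LOS, a ratio of 2.37 (2.30 to 2.45). In the subset with Gdf10 and Hsd11b1 (119, 651 and 564 barcodes) the ratio was 1.1998 (1.16 to 1.24). The median barcode lay far below these sums, at 1878 CPM in WT and 439 CPM in mgR in the Pi16 subset, at 209 and 426 CPM in the Comp subset, and at 1613 and 1377 CPM in the Gdf10 subset. With the subset markers at 0.4% or more the summed Pi16 ratio was 0.585 (0.559 to 0.612). The summed Comp ratio turned to 0.487 (0.429 to 0.551) over 144 WT and 63 mgR barcodes. The direction of the summed level in the Comp subset thus depends on where it is bounded. The median Comp barcode did not turn, at 137 CPM in WT and 145 CPM in mgR with that limit. Lox was higher in mgR than in WT in all 3 subsets, by 2.01-fold, 1.54-fold and 3.01-fold, and lower with losartan in all 3, at 0.393, 0.521 and 0.525 times mgR.

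**Figure D4:**
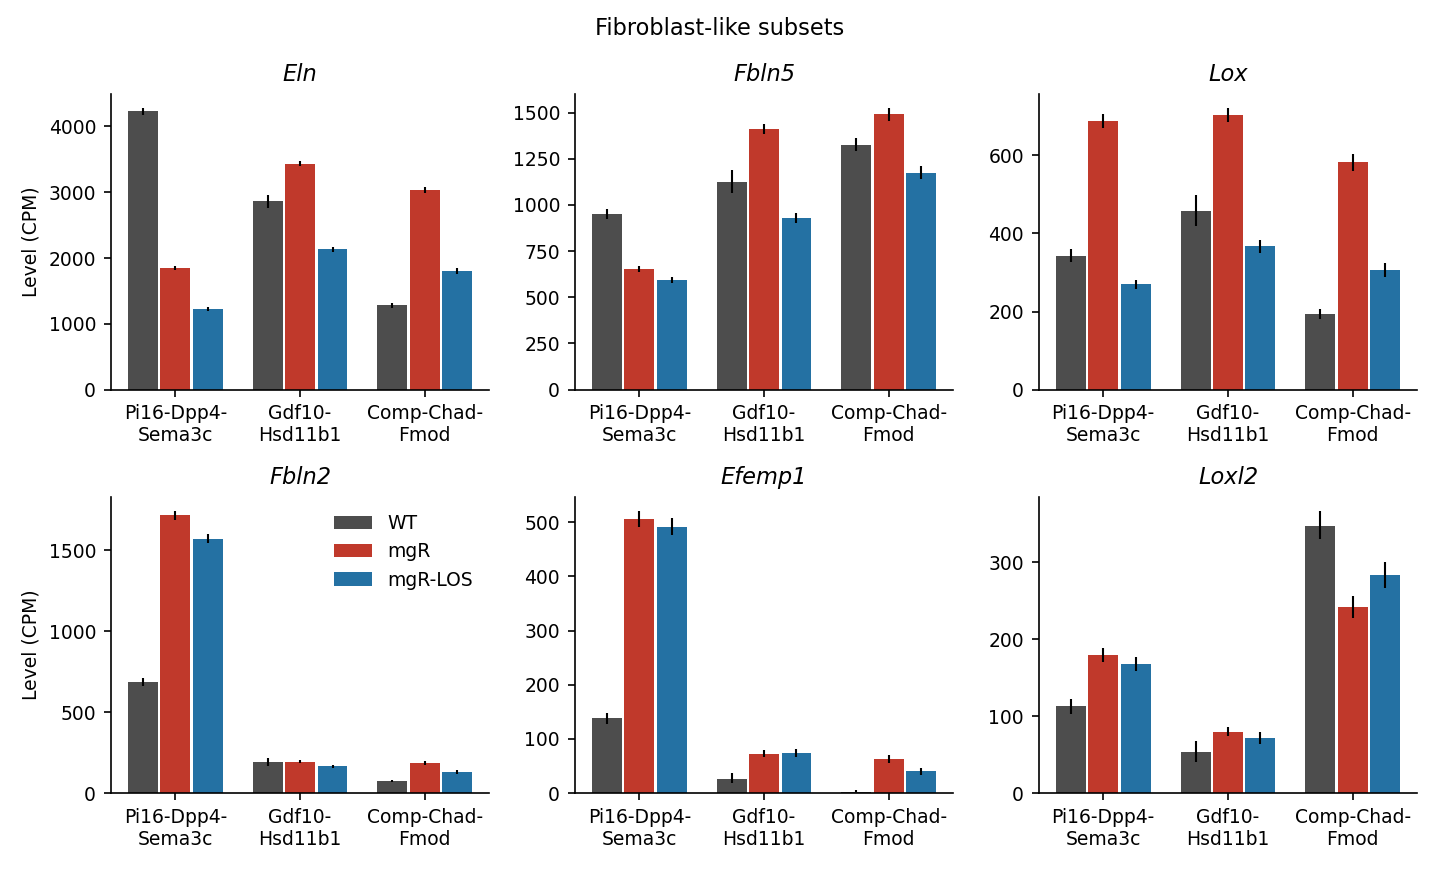
Levels (CPM, bars from 0, exact 95% Poisson intervals) of 6 genes in 3 fibroblast-like subsets of WT (grey), mgR (red) and mgR-LOS (blue). Fbln2 and Efemp1 are highest in the Pi16 subset of both mutant libraries, Lox is highest in mgR in each subset, and Eln in the Pi16 subset is at 4227 CPM in WT and 1843 CPM in mgR while it differs the other way in the Comp subset.

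Among SMC-like barcodes, those with Tnnt2 and Tcap (832, 515 and 1625) had less Eln than the other SMC-like barcodes, 0.680 times in WT, 0.878 times in mgR and 0.645 times in mgR-LOS, while their Fbln5 was 1.15 to 1.44 times as high. The Vcam1 and Spp1 subset had 161 barcodes in mgR, 86 in mgR-LOS and 5 in WT. In mgR it carried 9264 CPM of Eln, 1305 CPM of Fbln5 and 108 CPM of Fbln2, which were 1.27, 1.49 and 2.24 times the other SMC-like barcodes. In mgR-LOS the same subset had 3891 CPM of Eln, 0.946 times the others, and 134 CPM of Fbln2, 6.07 times the others. Fbln1 and Efemp1, mostly found in fibroblast-like barcodes, were also higher there than in the mgR subset. Fbln1 was at 57.0 against 5.78 CPM and Efemp1 at 9.68 against 2.31 CPM. The part of fibroblast transcripts in this subset was not tested. The levels of its 5 WT barcodes are not described.

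Among EC-like barcodes Eln, Lox and Fbln5 were highest in the luminal subset with Vwf, Bmx, Gja5, Clu and Gkn3 (41, 105 and 93 barcodes). Eln stood at 2284 CPM in WT, 3228 CPM in mgR and 2181 CPM in mgR-LOS there, at least 3.84 times the other EC-like barcodes. Lox was at 156, 257 and 158 CPM, at least 10.6 times the others, and Fbln5 at 433, 922 and 761 CPM. Loxl2 was the reverse, at 3.01 to 7.99 CPM in the luminal subset. It was at 107 to 132 CPM in the lymphatic subset with Lyve1, Prox1, Mmrn1 and Flt4 (24, 76 and 49 barcodes). Lymphatic barcodes were 24 of 105 EC-like barcodes in WT, 76 of 222 in mgR and 49 of 178 in mgR-LOS. The part of this share in the EC-like Loxl2 ratio of mgR over WT, 1.75, was not tested. Luminal barcodes were 39.0%, 47.3% and 52.2% of the class, and within them the ratios of mgR over WT were 1.41 for Eln, 2.13 for Fbln5 and 1.64 for Lox.

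Over single barcodes thinned to 5000 UMIs, Eln, Lox and Fbln5 tended to be high in the same fibroblast-like barcodes. Spearman's rho between Eln and Lox was 0.54 in WT, 0.56 in mgR and 0.44 in mgR-LOS (1094, 2079 and 2344 barcodes), and between Eln and Fbln5 0.44, 0.41 and 0.27. Fbln2 and Efemp1 went together at 0.18, 0.48 and 0.38. In SMC-like barcodes Eln and Fbln5 had 0.15 in WT, 0.42 in mgR and 0.11 in mgR-LOS, so the pair was linked mainly in mgR. These values describe barcodes of 1 library each, which share its depth and free RNA.

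The genes whose pattern was most like a member were sought by Pearson's correlation of log2(CPM + 1) over 12 sums, 4 classes by 3 libraries, among 5197 genes. For Eln they included Uchl1 (0.982) and Ndufa11 (0.981), and for Fbln1 they were Ssc5d (0.983), Scara5 (0.983) and Gfpt2 (0.978). For Lox they were Bgn (0.980), the small proteoglycan biglycan, Plod2 (0.979), a collagen lysyl hydroxylase, and Lhfp (0.974). For Loxl1 they were Col3a1 (0.995), Islr (0.992) and Col1a2 (0.990), so that collagen I and III chains took 2 of the 3 places. Col1a2 was itself in the fibroblast panel that formed the classes, so its pattern over them was partly given. The 12 sums share classes and libraries, so the values are a description.

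Other genes of the elastic fiber were read as lists, whose counts are to be read against the shares of all genes tested, 4.55% higher and 3.36% lower in mgR in SMC-like and 6.19% and 3.72% in fibroblast-like barcodes. Of 14 microfibril genes, 9 passed the filter in SMC-like barcodes, where Ltbp2 was higher and Fbn1, Mfap4, Mfap5 and Ltbp4 were lower in mgR. Mfap5, a microfibril glycoprotein, was at 729 CPM in WT, 257 CPM in mgR and 239 CPM in mgR-LOS, and Ltbp2, a latent TGF-beta binding protein relative, at 48.6, 102 and 45.8 CPM. Ltbp3, next among the higher genes, had a ratio of 1.201. In fibroblast-like barcodes 3 of 11 were higher, Emilin1, Emilin2 and Fbln7, and 3 were lower, Fbn1, Mfap4 and Ltbp1. Fbln7, a fibulin outside the 10, was at 19.3 CPM in WT, 69.7 CPM in mgR and 77.9 CPM in mgR-LOS, the course of Efemp1. Emilin2 was at 42.4, 108 and 94.3 CPM, and Mfap4 at 1657, 805 and 675 CPM.

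Of 17 helpers of assembly and cross-linking, 12 passed in SMC-like barcodes, with 4 higher in mgR (Pcolce, Postn, Fn1 and Bgn) and 3 lower (Pcolce2, Adamtsl4 and Tnxb). Fn1, or fibronectin, on which fibrillin assembly depends, was at 460.1 CPM in WT, 1767 CPM in mgR and 548 CPM in mgR-LOS. Pcolce, an enhancer of procollagen processing, was 3.44 times WT in mgR, its relative Pcolce2 0.344 times and Tnxb, tenascin X, 0.222 times. In fibroblast-like barcodes 2 of 13 were higher, Tnxb (1.64) and Fn1 (2.49), and none was lower, the lowest ratios being those of Dcn (0.668) and Adamtsl2 (0.680). Dcn was also in the panel that formed the classes, so its ratios, here and under losartan, are not independent of the class minima.

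Of 18 elastin-cleaving proteases and inhibitors, 10 passed in SMC-like and 10 in fibroblast-like barcodes. In SMC-like barcodes 4 were higher in mgR, Mmp2, Ctsk, Timp1 and Timp4, and none was lower, and in fibroblast-like barcodes 3 were, Mmp14, Mmp3 and Timp1. Timp1, an inhibitor of metalloproteinases, was at 16.5 CPM in WT, 69.0 CPM in mgR and 17.5 CPM in mgR-LOS in SMC-like barcodes and at 229, 609 and 219 CPM in fibroblast-like barcodes. In both classes losartan-treated Timp1 was near WT, as was Lox in fibroblast-like barcodes. Mmp2, or gelatinase A, was 2.01 times WT in mgR SMC-like barcodes and 0.690 times WT in fibroblast-like barcodes, and Mmp3 was 3.20 times WT there. The lowest ratios of this list were those of Ctsb (0.710) and Timp3 (1.03) in SMC-like and, after Mmp2, of Ctsk (0.929) in fibroblast-like barcodes. Of 8 elastin receptor genes Lgals3, galectin-3, was higher in mgR in both classes, 1.99-fold in SMC-like and 7.67-fold in fibroblast-like barcodes, and Itgb3 was lower in SMC-like barcodes at 0.633 times. Lgals3 is also abundant in macrophages, and the mgR library held the most immune-like barcodes, 1690; the part of free RNA in its ratio was not tested. The other receptor genes at the ends of this list ranged from 0.891 (Neu1) to 1.26 (Itgav) in SMC-like barcodes, and from 0.983 (Rpsa) and 1.01 (Itgav) to 1.24 (Ctsa) in fibroblast-like barcodes.

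Under losartan the counts are set against 3.53% of all genes higher and 3.09% lower in SMC-like and 2.96% and 3.07% in fibroblast-like barcodes. In SMC-like barcodes Mfap4 and Ltbp2 of the microfibril list, Mmp2 and Timp1 of the proteases and inhibitors, and Lgals3 of the receptors were lower than in mgR, and none of these lists had a higher gene. The helpers had 3 higher (Adamtsl4, Tnxb and Dcn) and 2 lower (Postn and Fn1, the latter at 0.310 times mgR). In fibroblast-like barcodes Ltbp2, Adamtsl2, Fn1, Timp1, Lgals3 and Itgb5 were lower and none of the 4 lists had a higher gene. Ltbp2, Fn1, Timp1 and Lgals3, like Eln and Lox, were thus lower with losartan in both classes.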

How the data were processed

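Droplet 3' libraries were made by the authors with a 10x Genomics kit (v3.1) and deposited as whole UMI counts per gene and barcode, aligned to mm10/GRCm38. The file headers name CellRanger 5.0.1 (WT, mgR) and 6.0.1 (mgR-LOS), and the labels name 6.0.1 for all. Barcodes were kept if 600 to 5000 genes were detected and mitochondrial UMIs did not exceed 10%. Classes needed a panel share of at least 1.5% (SMC, fibroblast), 0.2% (EC) or 0.3% (immune), minima set after the shares were seen, and barcodes over several minima, a partial guard against doublets, were left out. Free RNA was not removed. Genes needed a mean of 10 CPM over the 3 libraries of a class, and 1.5-fold was counted as a call. Levels have exact Poisson intervals, shares exact binomial (Clopper-Pearson) intervals and ratios exact conditional binomial intervals, all at 95%. Subsets needed 0.1% and 3 UMIs of their markers. The ratios and their intervals recovered known folds on class sums simulated with counting error only. Gating, free RNA and doublets were not simulated. The members and lists were chosen with earlier results of these data known. All 10 members and Fbn1 were named in the text, with the 2 highest and 2 lowest mgR over WT ratios of each list and the 3 genes most like Eln, Fbln1, Lox and Loxl1, of which 1 is not reported here; list members past 1.5-fold and the subset values were named beyond that rule. Python 3.11.15, numpy 2.4.6, scipy 1.17.1, pandas 2.3.3, scikit-learn 1.9.0 and leidenalg 0.10.2 were used.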

Additional observations from a re-analysis of the deposited data

Results flagged for a closer look

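Several ratios lay on opposite sides of 1 in classes or subsets of the same libraries, with counting intervals that excluded 1 on both sides. With 1 library per group, the difference was not tested in any of them. For Fbln5, mgR over WT was 1.40 in SMC-like and 2.20 in EC-like barcodes but 0.944 in fibroblast-like barcodes. For Loxl2, summed mgR over WT was 1.93 in SMC-like and 1.75 in EC-like barcodes and 0.895 in fibroblast-like barcodes. By the median barcode, fibroblast-like Loxl2 was instead higher in mgR, at 71.3 CPM against 0 CPM in WT. EC-like Loxl2 was far higher in the lymphatic than in the luminal subset. The part of the lymphatic share of barcodes in the EC-like ratio was not tested. Under losartan Loxl2 was at 0.574 times mgR in SMC-like and 1.05 times in fibroblast-like barcodes.

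Among fibroblast-like subsets, summed Eln of mgR over WT was 0.436 in the Pi16 subset, 1.1998 in the Gdf10 subset and 2.37 in the Comp subset. By the median barcode the Gdf10 subset was on the side of the Pi16 subset, with 1613 CPM in WT and 1377 CPM in mgR. The summed Comp ratio was 0.487 with subset markers at 0.4%. For Fbln5 the Pi16 subset was again lowest, at 0.686, with 1.25 in the Gdf10 and 1.12 in the Comp subset. Loxl2 was the reverse, at 1.59 in the Pi16 and 1.51 in the Gdf10 subset against 0.696 (0.642 to 0.754) in the Comp subset. Genes other than Eln were not followed at higher marker limits. Among EC-like barcodes, Eln of mgR-LOS over mgR was 0.676 (0.632 to 0.721) in the luminal and 1.49 (1.25 to 1.76) in the capillary subset, the latter marked by Gpihbp1, Fabp4, Cd36 and Rgcc.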

How the results depend on the processing

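No paired analysis was possible because each group was 1 library, and no replicate could be left out. Across 16 alternatives, and with differences of mean log-normalized values besides, 777 values were compared with the reported ratios of the members. Of these, 584 were counted as the same, 193 left the counting interval of the reported value and 0 changed direction while called. The log-normalized differences have no such interval and were counted as the same unless a called direction turned. A turn in a ratio that was not called was not counted as a change of direction. The fibroblast-like ratios of Fbln5 and Loxl2 flagged above were among these. The filter of 1 CPM and the fold of 2 give no new ratio. Of 84 counts of calls, 72 stayed within 1.5 times. With at most 5% mitochondrial UMIs the SMC-like mgR over WT count was 5 instead of 2. The EC-like count of mgR-LOS over mgR, 2, was 1 under that limit, with doublet scores used, with the mean of per-barcode CPM, with immune-like CPM subtracted and with barcodes given to the panel furthest over its minimum. It was 4 with a filter of 1 CPM and 4 in luminal barcodes only. At a fold of 2 the counts of SMC-like barcodes were 1 for mgR over WT and 2 for mgR-LOS over mgR, and those of EC-like barcodes 1 and 0. The summed Eln ratio of mgR over WT in the Comp subset reversed to 0.487 with subset markers at 0.4%, while the median barcode did not reverse. Of the 20 called ratios, all 6 in fibroblast-like barcodes kept their call under 12 alternatives, with Eln under losartan between 0.420 and 0.508 and Lox of mgR over WT between 2.19 and 2.88. Shares of barcodes with a UMI left their interval in 157 of 180 cases, as thinning to 2000 UMIs or none raises them by construction. The panel choice, the added SMC and fibroblast barcodes, the class without the Comp subset, the luminal class and the subset limits were chosen after seeing the data. The cause of these differences was not tested. Depth limits EC-like values most, with 828880 UMIs in WT.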

Other observations

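Barcodes over both the SMC and the fibroblast minimum, left out of every class, numbered 47 in WT, 99 in mgR and 321 in mgR-LOS. Eln in them was at 5579, 12798 and 2736 CPM, Fbln5 at 929, 1497 and 638 CPM and Lox at 286, 689 and 216 CPM. For all 3 genes the mgR library was highest and the losartan library lowest, and in mgR each was above the SMC-like level. Against the mgR fibroblast-like level Eln was 4.05 times and Fbln5 1.61 times as high, while for Lox the ratio was 1.03 (0.952 to 1.10). Barcodes over no minimum (91, 403 and 296) had 1873, 3945 and 1385 CPM of Eln. Whether the barcodes over both minima are single cells or doublets was not tested.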
